A study of Homo sapiens with 8 samples.

Results

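Semaphorins and plexins, with the plexin-domain protein PLXDC1, were followed in 2 human T-cell acute lymphoblastic leukaemia (T-ALL) lines given a degrader of the BAF chromatin remodelling complex. The 10 genes were SEMA7A, SEMA4A, SEMA4B, SEMA4C, SEMA4D, PLXNA1, PLXNA3, PLXNB2, PLXND1 and PLXDC1, picked by symbol out of the 63677 genes in the count tables, with earlier results of the same libraries in view. MOLT-4 and DND-41 cells received ACBI-1 at 100 nM or the vehicle DMSO, and RNA was taken at 24 h. ACBI-1 is a small molecule that recruits an E3 ubiquitin ligase to SMARCA2, SMARCA4 and PBRM1 so that these proteins are degraded. Each of the 4 groups (MOLT-4 with ACBI-1, MOLT-4 with DMSO, DND-41 with ACBI-1, DND-41 with DMSO) held 2 libraries, read as 100 bp pairs. Nothing in the labels says that the libraries of a group came from separate cultures, so the tests capture variation among these libraries, which may be technical.

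Semaphorins are secreted or membrane-bound ligands, and plexins are their main receptors, which act on the cytoskeleton through small GTPases. In lymphocytes and thymocytes they are known for roles in cell contact, migration and activation. PLXDC1 is a membrane protein with a plexin-like domain, first known from tumour endothelium and later as a receptor for the secreted protein PEDF.

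Promoter sequences are shown for 3 semaphorins that cover the range of differences in MOLT-4 described further on: SEMA7A with a large difference downward, SEMA4D with a small one, and SEMA4C with a difference upward from very few reads. Each is the 250 bases before the gene's first listed start, written 5′ to 3′ on the gene's strand, from RefSeq on GRCh38.p14. The capitals mark the GC box GGGCGG on either strand, the core to which SP1 and related factors are known to bind. SEMA7A lies on the minus strand of chromosome 15, at chr15:74433959-74434208.
SEMA7A: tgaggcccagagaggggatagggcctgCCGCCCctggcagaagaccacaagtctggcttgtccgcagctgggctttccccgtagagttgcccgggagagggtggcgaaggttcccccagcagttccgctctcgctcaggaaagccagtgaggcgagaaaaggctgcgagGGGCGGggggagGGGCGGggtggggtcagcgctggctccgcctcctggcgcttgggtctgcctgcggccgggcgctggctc
SEMA4C lies on the minus strand of chromosome 2, at chr2:96870081-96870330.
SEMA4C: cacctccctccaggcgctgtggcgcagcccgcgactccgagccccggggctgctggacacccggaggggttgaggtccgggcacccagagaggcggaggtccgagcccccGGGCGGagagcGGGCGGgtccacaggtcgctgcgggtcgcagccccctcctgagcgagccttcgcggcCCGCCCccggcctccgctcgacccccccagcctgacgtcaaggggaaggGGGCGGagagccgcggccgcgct
SEMA4D lies on the minus strand of chromosome 9, at chr9:89495657-89495906.
SEMA4D: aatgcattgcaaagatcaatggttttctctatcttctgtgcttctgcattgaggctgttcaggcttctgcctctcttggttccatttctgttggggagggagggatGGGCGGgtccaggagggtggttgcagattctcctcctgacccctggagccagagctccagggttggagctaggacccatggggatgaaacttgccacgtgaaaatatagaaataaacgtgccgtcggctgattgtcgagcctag
None of these 3 windows held an annotated exon base of its own gene. SEMA7A had 3 GC boxes, SEMA4C had 4 and SEMA4D had 1, and 42.64% of the 35116 RefSeq windows of the same length held at least 1. GC content was 70% for SEMA7A, 78% for SEMA4C and 52.4% for SEMA4D, against a median of 58% over all windows. A match of letters is a description and shows no binding. The promoter source held 9 of the 10 genes, without PLXDC1. Among the windows not shown, SEMA4A had 0 GC boxes, PLXNB2 had 1, PLXNA3 had 2, SEMA4B and PLXNA1 had 5 each, and PLXND1 had 9. Some of these windows held exon bases of their own gene, 156 in SEMA4A and 142 in PLXND1. A link between GC boxes and the differences was not tested.

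Totals ran from 21308737 to 22067644 counts per library, so 3 counts corresponded to 0.133 to 0.147 CPM (counts scaled to a common library size, on library sizes scaled by the TMM method). The 9 T-lineage markers summed to between 2170 and 2410 CPM in MOLT-4 and between 3330 and 3660 CPM in DND-41, but not all were abundant. In DND-41 CD2 was between 5.66 and 7.38 CPM, CD5 between 3.55 and 7.91 CPM and PTCRA between 0 and 0.0449 CPM. In MOLT-4 PTCRA was between 4.91 and 18.9 CPM. The fibroblast markers COL1A1, COL1A2 and COL3A1 summed to 27.9 CPM in MOLT-4 ACBI-1 replicate 2, and to 0.892, 0.522 and 1.66 CPM in the other 3 MOLT-4 libraries, so values without that library are given below. The B-lineage marker CD79A was at 711, 188, 767 and 216 CPM in DND-41 ACBI-1 replicates 1 and 2 and DMSO replicates 1 and 2, and at most 4.37 CPM in MOLT-4. SMARCA4 transcripts, which the degradation of the protein does not report on, were at 725 and 689 CPM with ACBI-1 and 602 and 580 CPM with DMSO in MOLT-4.

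The DND-41 labels did not match the authors' deposited comparison. Recomputed fold changes of ACBI-1 over DMSO equalled the authors' deposited table within 0.001 for 100% of 27777 genes in MOLT-4, but for 0.1515% of 27069 genes in DND-41. In DND-41 the libraries numbered 2 over those numbered 1 equalled the authors' deposited table for 100% of genes, and for 10 of the 10 genes described here. The chi-square per degree of freedom between counts was 5.49 and 5.09 for DND-41 libraries that share a number, and 68.3 and 64.6 for those that share a label. Which of the 2 names the treatment was not tested, so every DND-41 direction is tied to the library as labelled or to the authors' deposited table.

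SEMA7A, a GPI-anchored semaphorin that signals through integrins and PLXNC1, had the largest difference downward among the 10 genes in MOLT-4. It was at 28.6 and 29.2 CPM in the DMSO libraries and at 1.56 and 1.55 CPM in the ACBI-1 libraries. The groups were far apart, and within each the libraries nearly coincided. The log2 fold change was -4.21 (SE 0.125), and the pooled counts of 70 against 1218 gave a level 18.6-fold lower, with a 95% exact binomial interval of 14.6 to 24.0 that covers counting error only. Without MOLT-4 ACBI-1 replicate 2 the log2 fold change was -4.20. These are bulk libraries, in which fewer cells with a transcript and less of it per cell cannot be told apart.

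The class 4 semaphorins are membrane proteins that can be shed. SEMA4D (CD100), a ligand of plexin-B receptors and of CD72 on lymphocytes, was at 341 and 331 CPM with DMSO and at 208 and 207 CPM with ACBI-1. Its log2 fold change of -0.69 (SE 0.0361) was small beside that of SEMA7A, with a separation of the groups many times the gap between replicates. SEMA4A, known for T-cell priming, was at 2.14 and 1.57 CPM with DMSO and at 0.134 and 0.222 CPM with ACBI-1. This rested on 78 counts against 8, with a level 10.4-fold lower (interval 5.03 to 25.0). SEMA4B was at 15.1 and 15.3 CPM with DMSO and at 13.1 and 10.9 CPM with ACBI-1, a log2 fold change of -0.34 (SE 0.0962) that was -0.21 without MOLT-4 ACBI-1 replicate 2. SEMA4C, a ligand of plexin-B2, went the other way: 0.0950 and 0.0475 CPM with DMSO and 0.847 and 1.37 CPM with ACBI-1. With only 3 DMSO counts against 50, the ratio of 15.6 had an interval of 5.04 to 78.2.

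Among the receptors, PLXND1, which binds class 3 semaphorins and SEMA4A and is known for guiding thymocytes and vessels, was lower in MOLT-4 with ACBI-1. It was at 16.4 and 15.2 CPM with DMSO and at 6.56 and 6.34 CPM with ACBI-1, a log2 fold change of -1.30 (SE 0.106). PLXNA1, the receptor most abundant per length in MOLT-4, was at 84.6 and 83.7 CPM with DMSO and at 85.4 and 80.8 CPM with ACBI-1, and the groups overlapped. PLXNA3 was at 15.3 and 14.9 CPM with DMSO and at 15.9 and 13.6 CPM with ACBI-1, and overlapped too. Their log2 fold changes were -0.02 (SE 0.0463) and -0.04 (SE 0.0918), and took the other sign, 0.10 and 0.08, when scaled by total counts. PLXNA3 shares 11 exon bases with LAGE3 on the opposite strand, whose counts were 387% of its own in MOLT-4. PLXNB2, a receptor of class 4 semaphorins, had 5 counts in each MOLT-4 group and did not pass the filter on low counts.

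PLXDC1 had the largest difference upward among the 10 genes in MOLT-4. It was at 1.76 and 1.23 CPM with DMSO and at 32.8 and 32.6 CPM with ACBI-1. The ACBI-1 libraries nearly coincided, also where the fibroblast markers differed. The log2 fold change was 4.44 (SE 0.126), 4.45 without MOLT-4 ACBI-1 replicate 2, and the pooled counts of 1471 against 63 gave a ratio of 21.9 (interval 17.0 to 28.6). RDM1P5, on the opposite strand with 664 shared exon bases, had counts equal to 4.04% of those of PLXDC1.

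In all, 9 of the 10 genes passed the filter in MOLT-4. Libraries with ACBI-1 and with DMSO did not overlap for 7 of the 9, against 77.7% of all 14618 genes tested. At an adjusted p under 0.05, edgeR called 2 of them higher and 5 lower, where 58.4% of all genes tested were called, 28.2% of all tested higher and 30.2% lower. The authors' deposited table called 2 of the 9 genes with an adjusted p higher and 4 lower, without SEMA4B. It called 35.1% of all its genes with an adjusted p, 14.7% higher and 20.3% lower. Without MOLT-4 ACBI-1 replicate 2, the log2 fold changes not yet given were -3.73 for SEMA4A, 3.47 for SEMA4C, -0.69 for SEMA4D and -1.27 for PLXND1. PLXNA1 and PLXNA3 then took the other sign, at 0.024 and 0.0752. The genes were chosen with this contrast known, so their counts are a description.

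**Figure D1:**
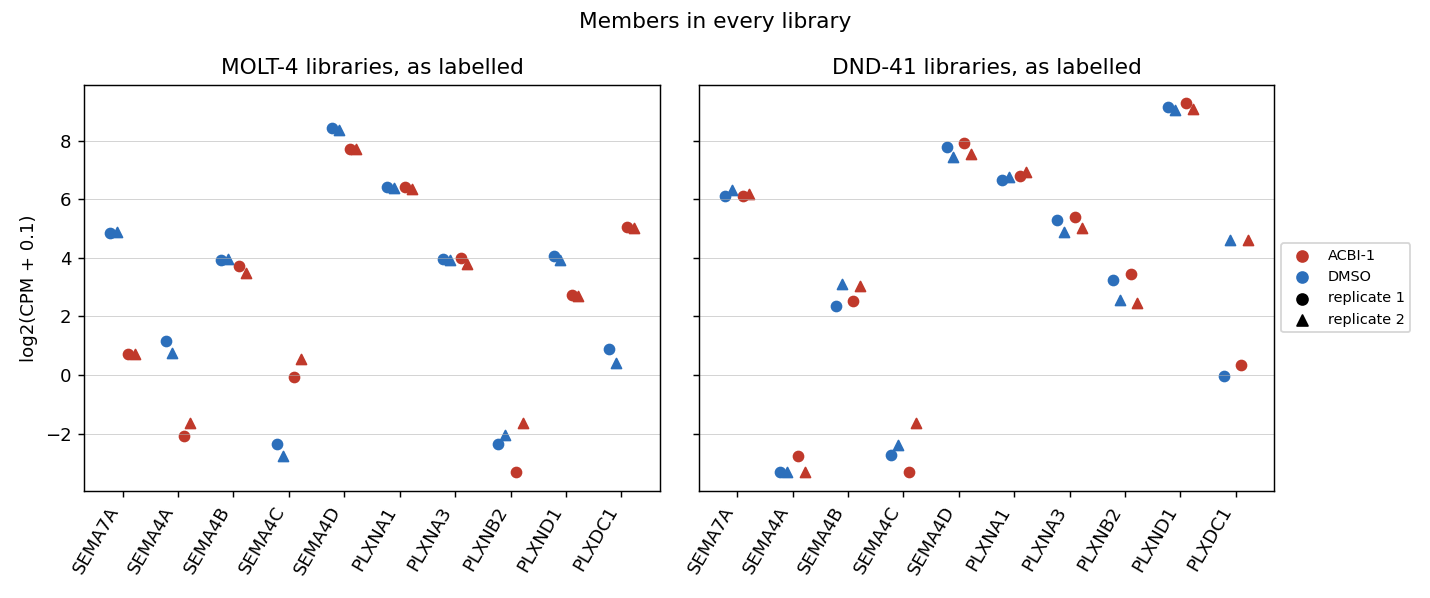
Level of each of the 10 genes in every library, as log2(CPM + 0.1) on the vertical axis, for MOLT-4 on the left and DND-41 on the right; colour gives the labelled treatment and shape the replicate number. In MOLT-4 SEMA7A and PLXDC1 separate by treatment, while in DND-41 PLXDC1 separates by replicate number.

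In DND-41, PLXDC1 followed the replicate number and not the label. It was at 1.16 and 24.0 CPM in the libraries labelled ACBI-1 and at 0.879 and 24.1 CPM in those labelled DMSO. As labelled, the log2 fold change was 0.01 (SE 1.87). In the authors' deposited table PLXDC1 had a log2 fold change of 4.53 (SE 0.284) in DND-41 and 4.44 (SE 0.226) in MOLT-4. It was the only gene at 4 or more in both of the authors' deposited tables, where 19 genes in MOLT-4 and 6 in DND-41 reached that value; this count was chosen after its values were seen.

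SEMA7A was at 69.5 and 72.2 CPM in the DND-41 libraries labelled ACBI-1 and at 68.7 and 78.5 CPM in those labelled DMSO. It overlapped between labels, and in the authors' deposited table its log2 fold change was 0.09 (SE 0.103). SEMA4D was at 242 and 187 CPM in the libraries labelled ACBI-1 and at 221 and 174 CPM in those labelled DMSO, higher in both libraries numbered 1. PLXNB2 was at 10.8 and 5.35 CPM against 9.38 and 5.78 CPM in the same order, and PLXNA3 at 41.7 and 32.3 CPM against 39.1 and 28.98 CPM. Both were higher in the libraries numbered 1. SEMA4B ran the other way, at 5.67 and 8.13 CPM against 5.03 and 8.58 CPM. The share of all genes that split by number in this manner is not given here.

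PLXND1 was at 616 and 545 CPM in the DND-41 libraries labelled ACBI-1 and at 561 and 532 CPM in those labelled DMSO, also higher in both libraries numbered 1. PLXNA1 was at 111 and 121 CPM against 99.8 and 109 CPM. It was the only 1 of the 8 genes tested whose labelled groups did not overlap, where 16.1% of all 14602 genes tested did not. SEMA4A had 1 count and SEMA4C 8 counts over the 4 libraries, and neither passed the filter.

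As labelled, edgeR called 0 of the 8 genes tested and 0% of all genes tested in DND-41, with an adjusted p of 1 for each of the 8. At an unadjusted p under 0.05 there were 37 of 14602 genes, and DESeq2 called 0. In the authors' deposited table, 2 of the 8 genes with an adjusted p were called higher (PLXDC1, and SEMA4B at a log2 fold change of 0.61) and 3 lower (SEMA4D at -0.39, PLXNA3 at -0.43 and PLXNB2 at -0.89), where 36.8% of all genes in that table were called, 15.2% higher and 21.6% lower. That table was also known when the genes were chosen.

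**Figure D2:**
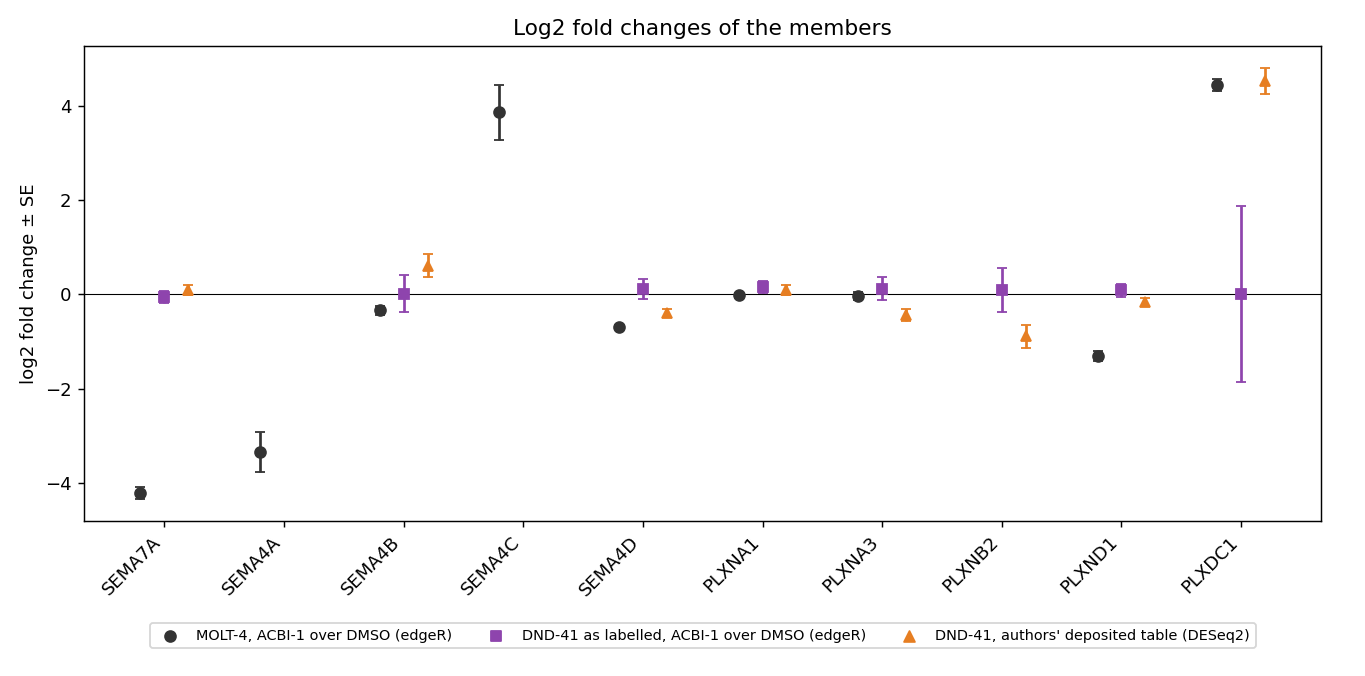
Log2 fold change of each gene on the vertical axis with its standard error, from edgeR in MOLT-4 (circles), from edgeR in DND-41 as labelled (squares) and from the authors' deposited DND-41 table (triangles); genes that did not pass the filter or have no adjusted p are left out. PLXDC1 sits at 4.44 in MOLT-4 and 4.53 in the authors' deposited table, and at 0.01 in DND-41 as labelled.

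Several of the 10 genes also differed in level between the lines, and these differences were not tested. Each fold sets the mean of all 4 DND-41 libraries, under both labels, against MOLT-4 with DMSO. TMM scaling was done in each line separately, so CPM are not on a scale fitted across the lines. The MOLT-4 count headers carry the word redo and the DND-41 headers do not, and its meaning is not given. PLXND1 averaged 564 ± 37.1 CPM (SD, n = 4) over the DND-41 libraries and 15.8 ± 0.843 CPM (SD, n = 2) in MOLT-4 with DMSO, a 35.6-fold difference. PLXNB2 averaged 7.82 ± 2.67 CPM (SD, n = 4) in DND-41 and had 5 counts in MOLT-4 with DMSO. SEMA7A was 2.498-fold and PLXNA3 2.35-fold higher in DND-41. SEMA4B was 2.22-fold and SEMA4D 1.63-fold lower in DND-41. SEMA4A had 78 counts in MOLT-4 with DMSO and 1 over all of DND-41.

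Levels were compared between genes as CPM per kb of exon. The length was that of all annotated exons of a gene merged, 14160 bp for SEMA4D and 3800 bp for SEMA7A. The transcripts in use may be shorter, so the order and the shares depend on this choice. In MOLT-4 with DMSO the order was SEMA4D at 23.8 ± 0.489, PLXNA1 at 7.69 ± 0.0601 and SEMA7A at 7.61 ± 0.104 (SD, n = 2), the latter pair within their spread, followed by SEMA4B at 2.17, PLXND1 at 1.63 and PLXNA3 at 1.29. The 20 semaphorin genes summed to 40.4 and 39.6 CPM per kb with DMSO and to 25.1 and 24.3 with ACBI-1. SEMA7A made up 18.65 to 19.39% of that sum with DMSO and 1.64 to 1.68% with ACBI-1, while SEMA4D kept 58.65 to 60.29% with ACBI-1 against 59.07 to 59.62%. In DND-41 SEMA7A made up 44.59 to 51.34% and SEMA4D 30.6 to 41.72%.

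The 9 plexin genes summed to 12.1 and 11.7 CPM per kb in MOLT-4 with DMSO and to 11.63 and 10.97 with ACBI-1. PLXNA1 held 64.14 to 65.54% of it with DMSO, and PLXND1 went from 13.41 to 14% with DMSO to 5.79 to 5.93% with ACBI-1. PLXNB1, a receptor of SEMA4D that is outside the 10 genes, went from 5.14 to 5.77% to 10.62 to 11.15%. In DND-41 the sum was between 71.7 and 80.6, and PLXND1 made up 74.96 to 78.56% of it.

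**Figure D3:**
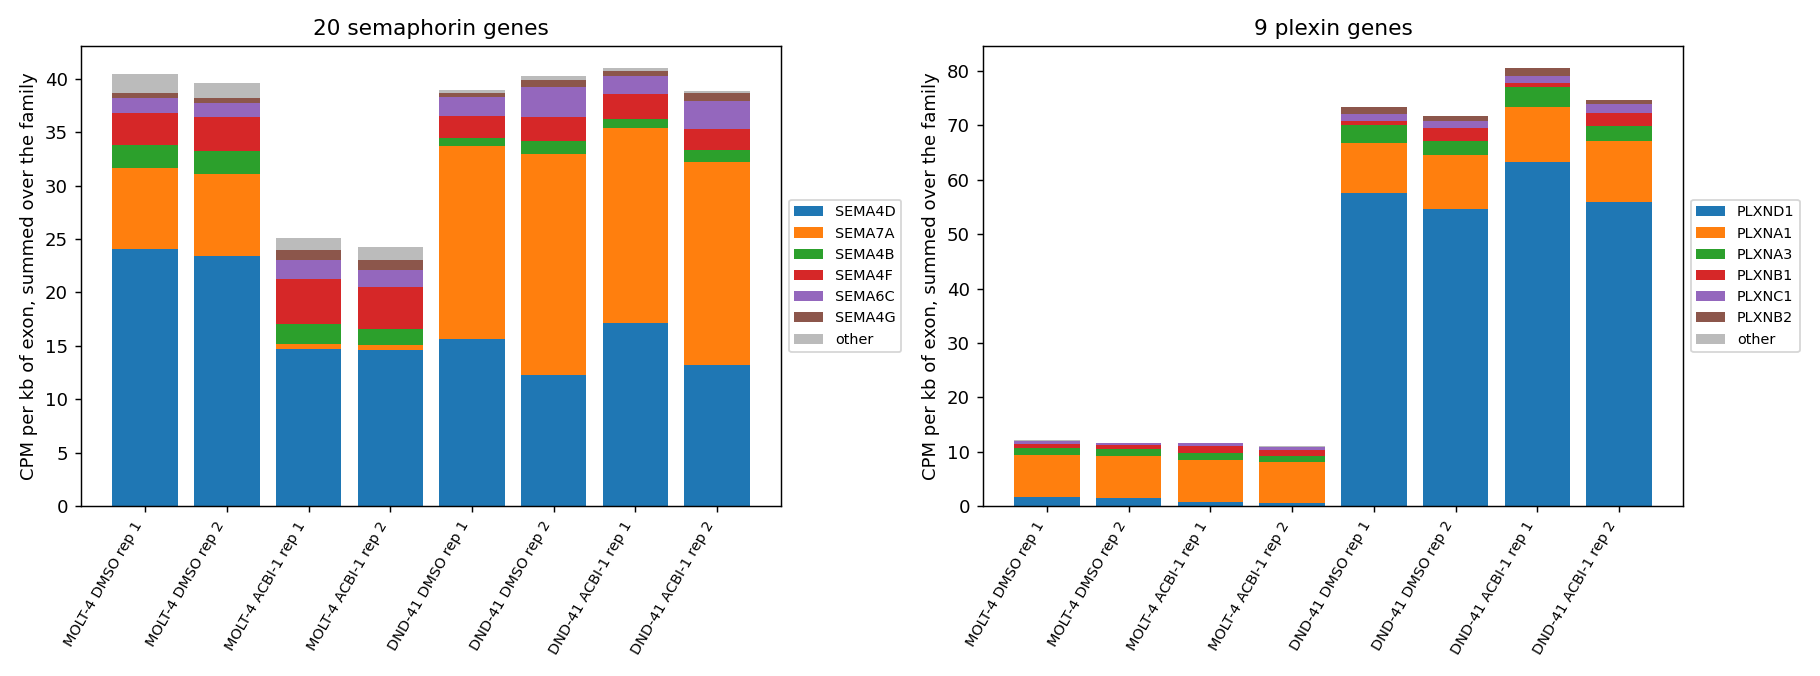
Stacked bars of CPM per kb of exon (vertical axis) for the 20 semaphorin genes on the left and the 9 plexin genes on the right, 1 bar per library, with the labelled treatment under each. SEMA7A is nearly gone from the MOLT-4 ACBI-1 bars, and PLXND1 fills most of each DND-41 plexin bar.

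Other genes of the pathway were read from a list of 74 chosen by known function, with earlier results of these data known. Of these, 49 were tested in MOLT-4. With edgeR's quasi-likelihood test, 35 of the 49 (71.4%) passed an adjusted p of 0.05, beside 58.4% of all genes tested. Of the 35, 15 rose and 20 fell, where 28.2% of all genes tested were called higher and 30.2% lower. These shares are the background for each group count below. Without MOLT-4 ACBI-1 replicate 2, 31 were called, 13 higher and 18 lower. With total-count scaling, which moves the median of all genes by 0.119 on the log2 scale, the split was 20 and 15. The median log2 fold change was -0.05, against 0.01 over all genes tested. When the spread was estimated over both lines together, 3 of the 35 stayed called: ARHGEF12, FARP1 and ADAM10. That spread grouped the DND-41 libraries by label, where the chi-square per degree of freedom between counts was 68.3 and 64.6. For MOLT-4 libraries that share a label it was 2.65 and 1.52.

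Of the 5 other semaphorins tested, 4 rose and 1 fell, beside 28.2% and 30.2% of all genes tested. With DESeq2, and also with no filter, 2 of the 10 then fitted were higher and 1 lower. SEMA4G was at 5.04 and 4.83 CPM with ACBI-1 and 2.28 and 2.42 CPM with DMSO, which is 1.07 higher on the log2 scale (SE 0.178, adjusted p = 1.75e-06 by edgeR), and SEMA4F rose by 0.40. SEMA6A was at 1.07 and 1.02 CPM with ACBI-1 and 0.332 and 0.570 CPM with DMSO. Its log2 fold change of 1.20 (edgeR adjusted p = 0.00738) lost its call with no filter (0.0685) and with DESeq2 (0.193). The call was also lost without ACBI-1 replicate 1 (at 1.17), ACBI-1 replicate 2 (at 1.24) or DMSO replicate 1 (at 0.864). It was kept without DMSO replicate 2 (at 1.63). SEMA3G fell by 0.64. MRPL43, on the strand opposite SEMA4G, had counts equal to 990% of those of SEMA4G. SEMA6A-AS1, opposite SEMA6A over 268 shared exon bases, had counts equal to 63.64% of those of SEMA6A. The libraries were strand-specific, but no strand setting of the counting is given in the sources used here. How reads over the shared exons of such pairs were counted is therefore not known.

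Of the 4 other plexins tested, 1 rose and 1 fell. PLXNB1 was at 12.6 and 11.3 CPM with ACBI-1 and 6.03 and 6.55 CPM with DMSO, 0.93 higher on the log2 scale (SE 0.115, adjusted p = 3.16e-09 by edgeR). PLXNA2 had 15 counts with ACBI-1 and 32 with DMSO, a log2 fold change of -1.17 (edgeR adjusted p = 0.0211). It lost the call when any 1 of the 4 libraries was left out, with adjusted p between 0.0512 and 0.15.

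Of the 6 co-receptors and other receptors tested, 1 rose and 1 fell; with total-count scaling 3 were higher and 1 lower. NRP1, the neuropilin that pairs with plexins for class 3 semaphorins, was at 0.178 and 0.310 CPM with ACBI-1 and 2.56 and 3.66 CPM with DMSO, for a difference of -3.64 on the log2 scale (SE 0.352, adjusted p = 4.74e-12 by edgeR). CD72, the lymphocyte receptor of SEMA4D, was at 0.803 and 1.37 CPM with ACBI-1 and 0.190 and 0.332 CPM with DMSO, a log2 fold change of 2.04 (edgeR adjusted p = 0.000145) whose call was lost with no filter (0.0596). TESK1, opposite CD72, had counts equal to 4027% of its counts.

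The plexin effectors were the largest group, with 7 of the 27 tested higher and 15 lower, beside 28.2% and 30.2% of all genes tested. With total-count scaling 9 were higher and 11 lower. The exchange factors that bind plexin-B moved apart: ARHGEF12 was at 5.62 and 6.20 CPM with ACBI-1 and 0.522 and 0.427 CPM with DMSO (log2 fold change 3.62, edgeR adjusted p = 1.4e-16). ARHGEF11 was at 1.70 and 3.19 CPM with ACBI-1 and 13.8 and 12.8 CPM with DMSO (log2 fold change -2.44, edgeR adjusted p = 6.59e-18). FARP1, an exchange factor tied to plexin-A, fell by 2.92 on the log2 scale, with 37 counts with ACBI-1 and 264 with DMSO. STK24, on the opposite strand over 7634 shared exon bases, had counts equal to 5172% of those of FARP1. The GTPases RND2 and RRAS rose, with log2 fold changes of 1.08 and 1.77. RRAS rested on 37 counts with ACBI-1 and 10 with DMSO, and lost the call with DESeq2 (adjusted p = 0.0952). ARHGAP35, a GTPase-activating protein, rose by 0.56.

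Of the 4 proteases that cut semaphorins, FURIN rose by 0.55 and ADAM10 fell by 0.69 on the log2 scale (edgeR adjusted p = 2.68e-09 and 6.96e-19), while ADAM17 and MMP14 did not pass the test; with total-count scaling 2 were higher and 1 lower. Of the 3 tested ligands and partners of PLXDC1, CTTN (cortactin, an actin-binding protein) was at 33.8 and 34.7 CPM with ACBI-1 and 2.71 and 3.04 CPM with DMSO, 3.57 higher on the log2 scale (SE 0.106, adjusted p = 1.28e-29 by edgeR). SERPINF1, which encodes PEDF, fell by 0.41 on the log2 scale (edgeR adjusted p = 0.0117). It lost the call with total-count scaling (0.0647), no filter (0.22) and DESeq2 (0.19), and without ACBI-1 replicate 1 (0.302, at -0.245) or DMSO replicate 1 (0.234, at -0.251). In DND-41 as labelled, edgeR called 0 of the 45 list genes tested.

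**Figure D4:**
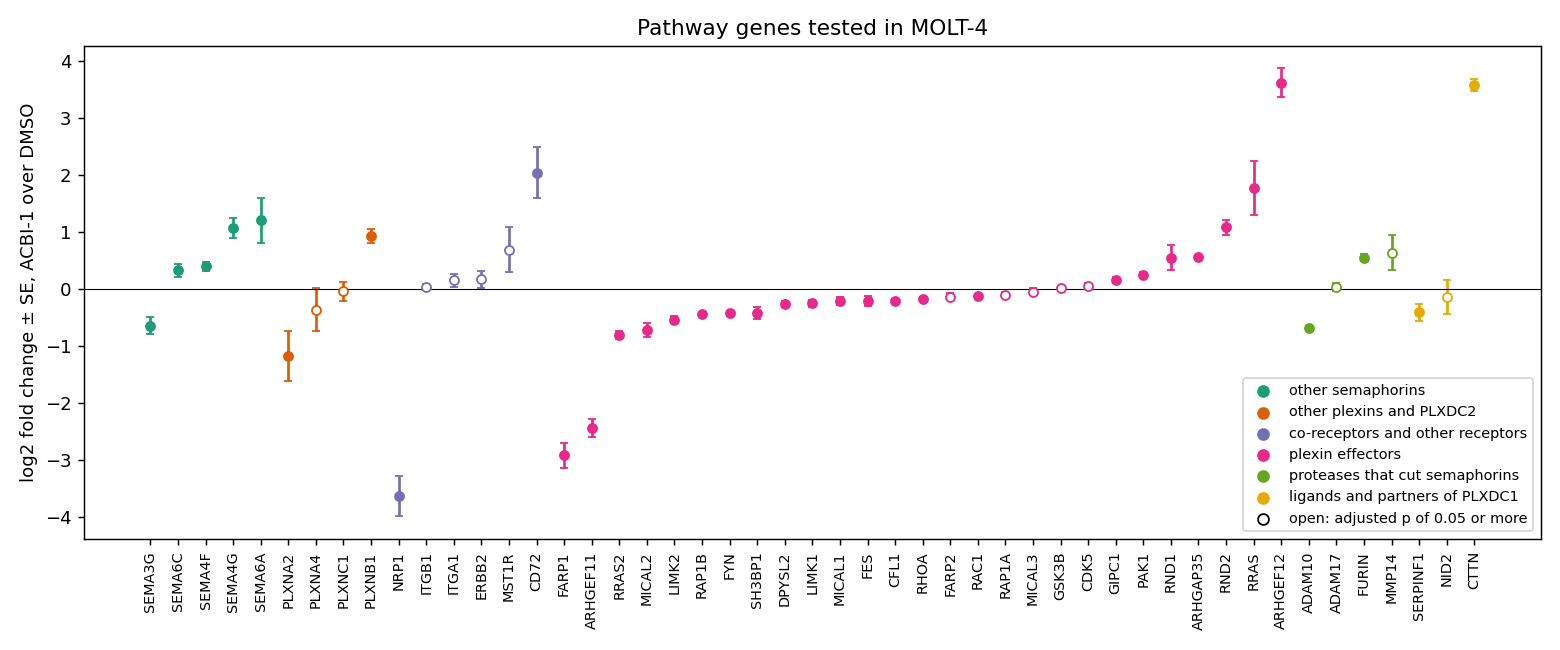
Log2 fold change of ACBI-1 over DMSO in MOLT-4 with its standard error (vertical axis) for the 49 tested genes of the pathway list, grouped by role and coloured by group; filled points passed an adjusted p of 0.05. ARHGEF12 and CTTN are highest and NRP1 is lowest.

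The genes most like a given one were those with the smallest root mean square difference of centred log2 CPM over the 8 libraries. For these distances alone, TMM scaling was done over all 8 libraries together, with a prior count of 2 added before the log. The CPM quoted beside them keep the scaling of each line. For PLXDC1 they were SYT11 (0.626), CTTN (0.831) and LRP1 (1.01), where the median over all genes compared was 2.28. In DND-41 CTTN was at 4.65 and 82.5 CPM in the libraries labelled ACBI-1 and at 5.03 and 82.5 CPM in those labelled DMSO, split by number as PLXDC1 was. For SEMA4D they were MFSD6 (0.0548), ADAM10 (0.0559) and USP16 (0.0569), with a median of 0.459. For SEMA7A they were RP5-1028K7.2 (0.41), PTGDR2 (0.427) and DOCK5 (0.469), with a median of 2.22. For PLXND1 they were CD37 (0.123), PIK3R5 (0.158) and HOXA7 (0.175), with a median of 2.89. HOXA7 was at 0 in both MOLT-4 ACBI-1 libraries. CD37 was at 0.0446 and 0.0443 CPM there, and RP5-1028K7.2 at 0.0446 and 0 CPM, all below the level of 3 counts.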

How the data were processed

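RNA was read in 8 libraries by strand-specific paired sequencing, per the labels' protocols. The authors deposited raw counts per gene for each line, and 1 comparison table per line with baseMean (a mean normalised signal), log2 fold changes and their errors, a Wald score, and p-values, per the file headers. The submitters' processing notes name hg19, STAR 2.5.2a, featureCounts and DESeq2 1.12.4. From the counts, each line was fitted alone with edgeR 4.0.16 (R 4.3.3): filterByExpr, TMM, quasi-likelihood test, Benjamini-Hochberg adjustment over all genes tested, threshold 0.05. Alternatives were DESeq2 1.42.0, total-count scaling, no filter, a spread shared by both lines, the replicate number as a block, and leaving out each library.

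Apart from the likeness distances, CPM used the effective library sizes of the edgeR fit. This scaling was chosen after the values had been seen, in place of TMM over all genes; it moved CPM by at most 0.957% in MOLT-4 and 2.69% in DND-41, and the same 7 and 1 of the 10 genes had groups that did not overlap under both. Exon lengths came from GENCODE 29 on GRCh38, a build other than that of the counts, so no hg19 coordinates are given. Intervals are exact binomial at 95%. The genes, the pathway list and the marker lists were chosen with earlier results of these data known. PLXNA3 had 2 Ensembl ids under its symbol, as did L1CAM, LIMK1, PLXNB3, RRAS2 and SEMA3B on the list. The id with the most counts was taken for each. Named list genes were those called in MOLT-4 with a log2 fold change of at least 1 in size, and up to 4 per group with the smallest adjusted p; the 3 genes most like each member were taken among genes with at least 5 CPM in a group mean.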

Additional observations from a re-analysis of the deposited data

How the results depend on the processing

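With 2 libraries per group, precision is limited by their spread, and genes under 3 counts per library lie at the limit of depth. In MOLT-4 a spread shared by both lines gave 544 calls among all genes (against 8533) and 3 on the pathway list (against 35); no filter gave 6049 and 26, DESeq2 gave 5710 and 25, and leaving out a library gave 6888 to 7123 and 27 to 31. Of the 35 list calls, 26 stayed in every fit that left out a library, and 0 changed direction under any setting. The spread shared by both lines grouped the DND-41 libraries by label, so it took in their differences by number. The replicate block gave 8581 and 35 calls in MOLT-4. In DND-41 as labelled the replicate block gave 1349 calls (777 higher, 572 lower) against 0 without it, and PLXNA1 then had an adjusted p of 0.0193 at a log2 fold change of 0.15. Same-numbered libraries deviated together in DND-41 (correlation 0.849) and not in MOLT-4 (0.00928), and with 2 pairs the numbers were not taken to pair the samples.

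No other alternative gave a call among all genes in DND-41 as labelled. There, 7 of the 8 genes tested changed sign when a library was left out (PLXNA1 did not, at 0.0922 to 0.211). Their log2 fold changes ranged over -0.145 to 0.0327 for SEMA7A, -0.312 to 0.443 for SEMA4B, -0.0866 to 0.304 for SEMA4D, -0.0891 to 0.354 for PLXNA3, -0.51 to 0.51 for PLXNB2, -0.0115 to 0.177 for PLXND1 and -3.42 to 3.81 for PLXDC1. PLXDC1 was also at -0.0245 with no filter, -0.0236 with DESeq2 and -0.0164 with a shared spread. The cause was not tested.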
